A study of Homo sapiens with 15 samples.

Results

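The endoplasmic reticulum (ER) is where secreted and membrane proteins are folded, and the genes described here are 37 listed ER chaperones, disulfide enzymes, degradation factors and sensors of the unfolded protein response. The members were matched by gene symbol; the rule that lists them uses no measured value, though the list was drawn up with earlier results of these data known. All 37 were among the 15230 genes of the authors' count table of untreated and day 7 samples, and 36 were among the 12575 genes of their table that also holds day 3, where ERN1 is not listed. Together the tables hold 16324 genes.

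New proteins enter the ER through the SEC61 channel, are bound by chaperones such as HSPA5 (BiP) and by the lectins calnexin and calreticulin, and receive their disulfide bonds from the protein disulfide isomerases. Proteins that fail to fold are drawn back into the cytosol and degraded, which is called ER-associated degradation. When unfolded proteins build up, the membrane sensors IRE1 (ERN1), PERK (EIF2AK3) and ATF6 raise folding capacity, through the transcription factors XBP1, ATF4 and ATF6, and PERK lowers translation by phosphorylating eIF2alpha.

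RNA was measured in IHA, a fetal human astrocyte line immortalized with SV40. Its mutant IDH1 (R132H, according to the text of the series' design) is switched on by 1 µg/ml of doxycycline. The normal enzyme is the cytosolic isocitrate dehydrogenase, and the mutant produces 2-hydroxyglutarate instead. The 15 samples were 6 untreated ones (3 with the tag b1, 3 with b2), 4 at day 3 of doxycycline (all b2) and 5 at day 7 (1 of b1 and 4 of b2). The tags are taken here as batches, and replicates are named by them (b1-13 is the only day 7 library of b1). All samples share the genotype label WT IDH1, and there is no control that received doxycycline but lacks the inducible gene. The untreated samples carry no day, so time in culture, doxycycline itself and the mutant enzyme cannot be told apart. Nothing says that the replicates were separate cultures, so the p-values measure only the spread between these samples. In bulk samples, fewer cells of a type and less RNA per cell cannot be told apart either.

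Libraries were made by a bulk form of MARS-seq, which counts 3′ ends with unique molecular identifiers (UMIs), so that each count is a molecule. Depth ranged from 2573290 to 5567651 UMIs per library in the table of untreated and day 7 samples, and from 1816599 to 4656705 where day 3 was included. IDH1 stood at 28.6 to 43.4 CPM (UMI counts relative to the TMM-scaled library size) in day 7 libraries, against 26.4 to 36.8 CPM in untreated libraries. It was not called at day 7, with a log2 change of 0.22 ± 0.11 (edgeR adjusted p = 0.178, SE). Counts per gene do not tell mutant from normal IDH1, and whether the 3′ ends counted include those of the inducible gene was not tested. Of 12 astrocyte markers 7 were listed, led by VIM at 5981 to 9231 CPM, while GFAP, AQP4, SLC1A2, ALDH1L1 and FABP7 were not listed and S100B had 0 to 8 UMIs. The other listed ones were CD44 (454 to 706 CPM), GJA1 (32.6 to 57.2), SOX9 (14.0 to 41.9), NES (1.73 to 10.6) and SLC1A3 (2.37 to 6.07). By CPM the label astrocyte thus rests mostly on VIM and CD44, genes that other cells also express. Fibroblast and pericyte markers (6 of 8 listed) summed to 449 to 992 CPM at day 7, against 840 to 1074 CPM untreated. The endothelial marker TIE1, 1 of 4 listed, stood at 6.91 to 10.8 CPM at day 7, against 12.2 to 19.4 CPM untreated. Epithelial markers (4 of 6 listed) summed to 596 to 751 CPM at day 7, against 644 to 1070 CPM untreated. Most of this was KRT18, at 556 to 1003 CPM over all libraries, while EPCAM and KRT14 reached at most 2.45 and 3.96 CPM. Neuron markers (3 of 5) summed to 10.8 to 14.7 CPM at day 7, against 12.1 to 17.2 CPM untreated, and the microglial marker CSF1R, 1 of 5, to 1.44 to 3.98 CPM, against 0.182 to 3.19 CPM. The part of these markers in the results below was not tested.

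The promoters of some of these genes carry the letters through which the unfolded protein response is known to act. They are shown because members that hold the same element were called in different directions. The ER stress response element (ERSE) is CCAAT, any 9 bases, then CCACG, and is bound by NF-Y and by ATF6 or XBP1. It was searched on both strands in RefSeq's windows of 300 bases (250 before to 50 after the gene's start, GRCh38.p14), and 35 of the 37 members have a window. It was found in 7 of 35 members (20% of them), against 25 of all 27305 genes with a window (0.0916%). The list includes genes of the response that acts through these elements, so the shares, here and below, are only a description. The stretches below read in the direction of the gene, with the element in capitals. Where it lies on the other strand it reads from CGTGG to ATTGG.
HSPA5, chr9:125241380-125241420, minus strand: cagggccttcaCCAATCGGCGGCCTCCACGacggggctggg
HSP90B1, chr12:103930205-103930245, plus strand: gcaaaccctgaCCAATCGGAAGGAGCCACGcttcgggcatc
HSP90B1, chr12:103930310-103930350, plus strand: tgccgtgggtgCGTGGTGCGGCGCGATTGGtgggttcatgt
CRELD2, chr22:49918543-49918583, plus strand: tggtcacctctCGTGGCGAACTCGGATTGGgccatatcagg
CALR, chr19:12938373-12938413, plus strand: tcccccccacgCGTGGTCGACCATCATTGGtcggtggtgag
CANX, chr5:179698767-179698807, plus strand: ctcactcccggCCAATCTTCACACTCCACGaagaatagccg
PDIA6, chr2:10812842-10812882, minus strand: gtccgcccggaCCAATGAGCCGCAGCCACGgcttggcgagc
XBP1, chr22:28800592-28800632, minus strand: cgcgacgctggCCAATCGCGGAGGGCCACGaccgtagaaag

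HSP90B1 holds the element at both places shown. A shorter form, ERSE-II (ATTGG, any 1 base, then CCACG), was found in 3 of 35 members (8.57%), against 0.0696% of all genes with a window. HYOU1 holds it at both places shown.
SDF2L1, chr22:21642103-21642135, plus strand: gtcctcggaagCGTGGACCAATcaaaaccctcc
HYOU1, chr11:119057369-119057401, minus strand: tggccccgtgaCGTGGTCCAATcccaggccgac
HYOU1, chr11:119057263-119057295, minus strand: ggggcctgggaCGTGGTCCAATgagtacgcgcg
HERPUD1, chr16:56932014-56932046, plus strand: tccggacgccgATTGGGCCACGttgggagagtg

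The core of the XBP1 site, TGACGTGG, was in the windows of DNAJC10 and HYOU1 (5.71% of members, against 0.927% of all genes with a window). In HYOU1 it overlaps an ERSE-II. A match to these letters is a description and was not shown to be bound in these cells. Matches to the full ERSE and to ERSE-II lay in different members.

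At day 7 of doxycycline both lectins, CALR and CANX, rose, with 3 of 10 chaperones and co-chaperones, 2 of 6 disulfide enzymes and 3 of 8 degradation factors of the ER, while 2 of its transcription factors, XBP1 and CREB3L2, fell. Of 36 members tested, 12 rose and 2 fell (38.9% called), where 15.7% of all 12449 genes tested were called in either direction, 8.43% up and 7.28% down. The members that rose did so by 1.14-fold (PDIA6) to 1.32-fold (EDEM1), and the median log2 change over the 36 was 0.08, against -0.02 over all genes tested. A call is an adjusted p under 0.05 in the quasi-likelihood test of edgeR, with batch in the model. The p-values were adjusted by Benjamini-Hochberg over all genes tested. At an unadjusted p under 0.05 there were 17 members. Counts at an unadjusted p, here and below, have no share of all genes beside them and are not read as a result. HSPA13, an HSP70-like ATPase of microsomes, had 1 to 11 UMIs per library and did not pass the filter on low counts. In b2 the 37 members took 0.612% to 0.638% of all UMIs at day 7, against 0.567% to 0.584% without doxycycline. In b1 they took 0.664% at day 7, against 0.615% to 0.636%. Such shares, here and below, weigh abundant members such as CALR, HSP90B1 and P4HB most.

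**Figure D1:**
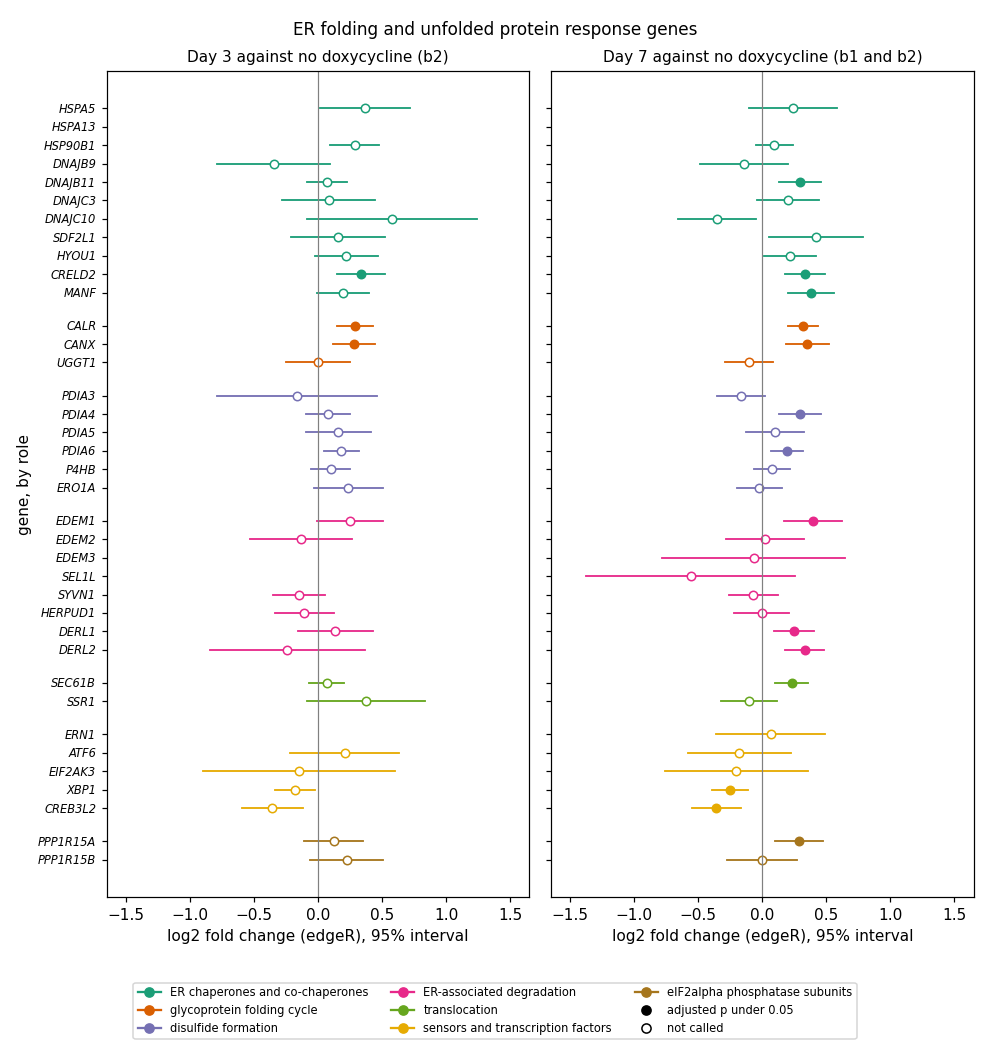
Log2 fold change of each member by role, day 3 against no doxycycline (left, b2) and day 7 against no doxycycline (right, b1 and b2), with 95% intervals from edgeR; filled points were called at an adjusted p under 0.05 and open points were not. At day 7 the 12 filled points right of 0 are spread over all roles except the sensors and transcription factors, whose 2 filled points lie left of 0; at day 3 the 3 filled points are CRELD2, CALR and CANX.

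Both lectin chaperones of the glycoprotein folding cycle rose, and CALR had the smallest adjusted p among the members. CALR, calreticulin, which holds sugar-bearing folding intermediates in the ER lumen, had 1231, 1214, 1175 and 1209 CPM in the day 7 b2 libraries, against 944, 964 and 1030 CPM in the untreated b2 libraries. In b1 it had 2193 CPM at day 7, against 1704, 1723 and 1739 CPM untreated. Every day 7 library thus lay above every untreated library of its batch. The rise was 1.25-fold, a change of 0.32 ± 0.06 on the log2 scale (SE, edgeR adjusted p = 0.000494).

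CANX, calnexin, its membrane-bound counterpart, had 356, 294, 334 and 357 CPM in the day 7 b2 libraries, against 256, 229 and 238 CPM in the untreated ones. In b1 its 348 CPM at day 7 lay within the 345, 354 and 313 CPM of the untreated libraries. The groups were apart in b2 and overlapped in b1. Its log2 change was 0.35 ± 0.08 (SE, edgeR adjusted p = 0.00452). UGGT1, which marks incompletely folded glycoproteins for another round, had a log2 change of -0.11 (edgeR adjusted p = 0.467).

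Of 10 chaperones and co-chaperones tested, 3 rose. MANF, a secreted ER protein that steadies HSPA5 and its clients, had 210, 205, 200 and 169 CPM in the day 7 b2 libraries, against 167, 124 and 146 CPM untreated, and 221 CPM in day 7 b1, against 166, 205 and 184 CPM untreated. No day 7 library overlapped the untreated ones of its batch. The log2 change was 0.38 ± 0.09 (SE, edgeR adjusted p = 0.00413).

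CRELD2, an ER-resident protein with disulfide isomerase activity, had 82.3, 78.7, 72.6 and 78.3 CPM in the day 7 b2 libraries, against 65.3, 57.6 and 61.6 CPM untreated, and 95.2 CPM in day 7 b1, against 76.9, 79.1 and 74.7 CPM untreated. The groups did not overlap in either batch. The log2 change was 0.33 ± 0.08 (SE, edgeR adjusted p = 0.00441).

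DNAJB11, a DnaJ co-chaperone that hands clients to HSPA5, had 90.1, 102, 95.8 and 101 CPM in the day 7 b2 libraries, against 80.4, 85.6 and 81.8 CPM untreated, and 78.5 CPM in day 7 b1, against 52.2, 62.0 and 56.3 CPM untreated. The groups were again apart in both batches. Its log2 change was 0.30 ± 0.08 (SE, edgeR adjusted p = 0.0120).

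HSPA5, the HSP70 of the ER, was counted with 22 to 111 UMIs per library and did not pass the test. It had 22.7, 19.6, 19.4 and 17.0 CPM in the day 7 b2 libraries, against 11.4, 17.9 and 13.0 CPM untreated, and 8.77 CPM in day 7 b1, against 13.2, 13.3 and 12.4 CPM untreated. In b2 3 of the 4 day 7 libraries lay above all untreated ones, and in b1 the day 7 library lay below them. The log2 change over both batches was 0.24 ± 0.17 (SE, edgeR adjusted p = 0.356), with a 95% interval of -0.10 to 0.59. Without the day 7 library of b1 it was 0.46 (edgeR adjusted p = 0.0537).

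The other chaperones tested had log2 changes from -0.35 to 0.42 and none was called. SDF2L1, a partner of the ER DnaJ proteins, had the highest at 0.42 ± 0.17 (SE, edgeR adjusted p = 0.117), and DNAJC10, a disulfide reductase of the ER, the lowest at -0.35 (edgeR adjusted p = 0.107). HSP90B1 (GRP94), the HSP90 of the ER, had 0.09 (edgeR adjusted p = 0.401). HYOU1, a nucleotide exchange factor for HSPA5, had 0.22 (edgeR adjusted p = 0.148). The co-chaperones DNAJC3 and DNAJB9 had 0.20 and -0.14.

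Among the 6 disulfide enzymes 2 rose. PDIA4, a disulfide isomerase, had 224, 167, 183 and 178 CPM in the day 7 b2 libraries, against 159, 170 and 158 CPM untreated, and 283 CPM in day 7 b1, against 194, 209 and 202 CPM untreated. One day 7 b2 library overlapped the untreated ones and the b1 library did not. The log2 change was 0.30 ± 0.08 (SE, edgeR adjusted p = 0.0118).

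PDIA6, which also limits how long IRE1 signals, had 497, 457, 512 and 491 CPM in the day 7 b2 libraries, against 418, 416 and 418 CPM untreated, and 453 CPM in day 7 b1, against 412, 419 and 431 CPM untreated. The groups did not overlap in either batch. Its log2 change was 0.19 ± 0.06 (SE, edgeR adjusted p = 0.0298). P4HB and PDIA5, both disulfide isomerases, had log2 changes of 0.08 and 0.10, and ERO1A, the oxidase that recharges P4HB, had -0.02. PDIA3, which works with calnexin and calreticulin, had -0.17 (edgeR adjusted p = 0.219).

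In ER-associated degradation 3 of 8 members rose. EDEM1, which marks terminally misfolded glycoproteins for removal, had 32.6, 42.1, 32.1 and 43.9 CPM in the day 7 b2 libraries, against 31.3, 30.1 and 30.3 CPM untreated, and 73.7 CPM in day 7 b1, against 43.6, 45.2 and 56.8 CPM untreated. The groups did not overlap in either batch, though 2 of the day 7 b2 libraries lay close to the untreated ones. This was a change of 0.40 ± 0.11 on the log2 scale (SE, edgeR adjusted p = 0.0167).

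DERL2, a membrane protein of the export channel, had 125, 150, 149 and 165 CPM in the day 7 b2 libraries, against 111, 118 and 121 CPM untreated, and 218 CPM in day 7 b1, against 170, 178 and 179 CPM untreated. Its paralog DERL1 had 97.6, 101, 102 and 108 CPM in the day 7 b2 libraries, against 90.1, 88.4 and 73.8 CPM untreated, and 123 CPM in day 7 b1, against 105, 108 and 109 CPM untreated. Both were apart from the untreated libraries in each batch of this table. The second table counts DERL2 at 3.25 to 7.43 CPM in the day 7 b2 libraries, against 4.78 to 6.90 CPM untreated, and DERL1 at 31.8 to 47.1 CPM, against 27.4 to 36.3 CPM, so that both overlap there. The log2 changes were 0.33 ± 0.07 for DERL2 and 0.25 ± 0.07 for DERL1 (SE, edgeR adjusted p = 0.00385 and 0.0257), against -0.0012 and 0.28 from the second table (edgeR adjusted p = 0.999 and 0.170).

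The rest of the degradation set was not called. SYVN1 (HRD1), the ubiquitin ligase, and SEL1L, its adaptor, had log2 changes of -0.07 and -0.56, the second on 1 to 28 UMIs per library. HERPUD1, a scaffold of the same complex, had -0.0043, and the mannosidases EDEM2 and EDEM3 had 0.02 and -0.07.

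SEC61B, a subunit of the channel through which new proteins enter the ER, had 515, 474, 459 and 509 CPM in the day 7 b2 libraries, against 445, 435 and 430 CPM untreated, and 408 CPM in day 7 b1, against 304, 324 and 312 CPM untreated. The groups did not overlap in either batch. Its log2 change came to 0.23 ± 0.06 (SE, edgeR adjusted p = 0.0144). SSR1, of the translocon-associated complex beside the channel, had -0.10 (edgeR adjusted p = 0.555).

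None of the 5 sensors and transcription factors rose, and 2 fell. XBP1, whose spliced form is the transcription factor downstream of IRE1, had 118, 113, 121 and 127 CPM in the day 7 b2 libraries, against 142, 151 and 143 CPM untreated, and 113 CPM in day 7 b1, against 133, 125 and 128 CPM untreated. It was the member that lay below every untreated library in both batches. Across both batches the log2 change was -0.25 ± 0.07 (SE, edgeR adjusted p = 0.0131). Counts per gene do not tell spliced from unspliced XBP1.

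CREB3L2, an ER-anchored transcription factor cleaved in the Golgi like ATF6, had 114, 99.7, 95.8 and 99.3 CPM in the day 7 b2 libraries, against 142, 111 and 113 CPM untreated, and 41.8 CPM in day 7 b1, against 67.1, 67.8 and 71.4 CPM untreated. The groups overlapped in b2 and were apart in b1. In the model it moved by a change of -0.36 ± 0.09 on the log2 scale (SE, edgeR adjusted p = 0.0100).

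The 3 sensors themselves were thinly counted and none was called. ERN1 (IRE1), a kinase and nuclease, had 4.28, 7.49, 4.89 and 6.91 CPM in the day 7 b2 libraries, against 5.83, 5.47 and 5.40 CPM untreated, and 5.58 CPM in day 7 b1, against 5.39, 5.85 and 4.88 CPM untreated. ATF6, released from the membrane by cleavage, had 6.95, 5.76, 8.03 and 7.36 CPM in the day 7 b2 libraries, against 10.9, 7.11 and 7.20 CPM untreated, and 4.78 CPM in day 7 b1, against 3.92, 4.29 and 5.10 CPM untreated. EIF2AK3 (PERK), the eIF2alpha kinase, had 2.41, 4.90, 4.19 and 5.35 CPM in the day 7 b2 libraries, against 3.88, 5.10 and 3.60 CPM untreated, and 1.59 CPM in day 7 b1, against 2.70, 4.29 and 3.99 CPM untreated. The groups of all 3 sensors overlapped in b2, and EIF2AK3 alone lay outside the untreated range in b1. Log2 changes were 0.07 ± 0.21 for ERN1, -0.18 ± 0.19 for ATF6 and -0.20 ± 0.27 for EIF2AK3 (SE, edgeR adjusted p = 0.872, 0.577 and 0.665). The 95% interval for ERN1 ran from -0.36 to 0.49.

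PPP1R15A (GADD34), the stress-induced subunit that brings a phosphatase to eIF2alpha and restores translation, had 66.6, 48.7, 50.3 and 53.8 CPM in the day 7 b2 libraries, against 45.4, 43.4 and 45.7 CPM untreated, and 120 CPM in day 7 b1, against 106, 89.6 and 98.7 CPM untreated. The groups did not overlap in either batch. This gave a change of 0.29 ± 0.09 on the log2 scale (SE, edgeR adjusted p = 0.0323). Its constitutive counterpart PPP1R15B had -0.0047 (edgeR adjusted p = 0.985).

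**Figure D2:**
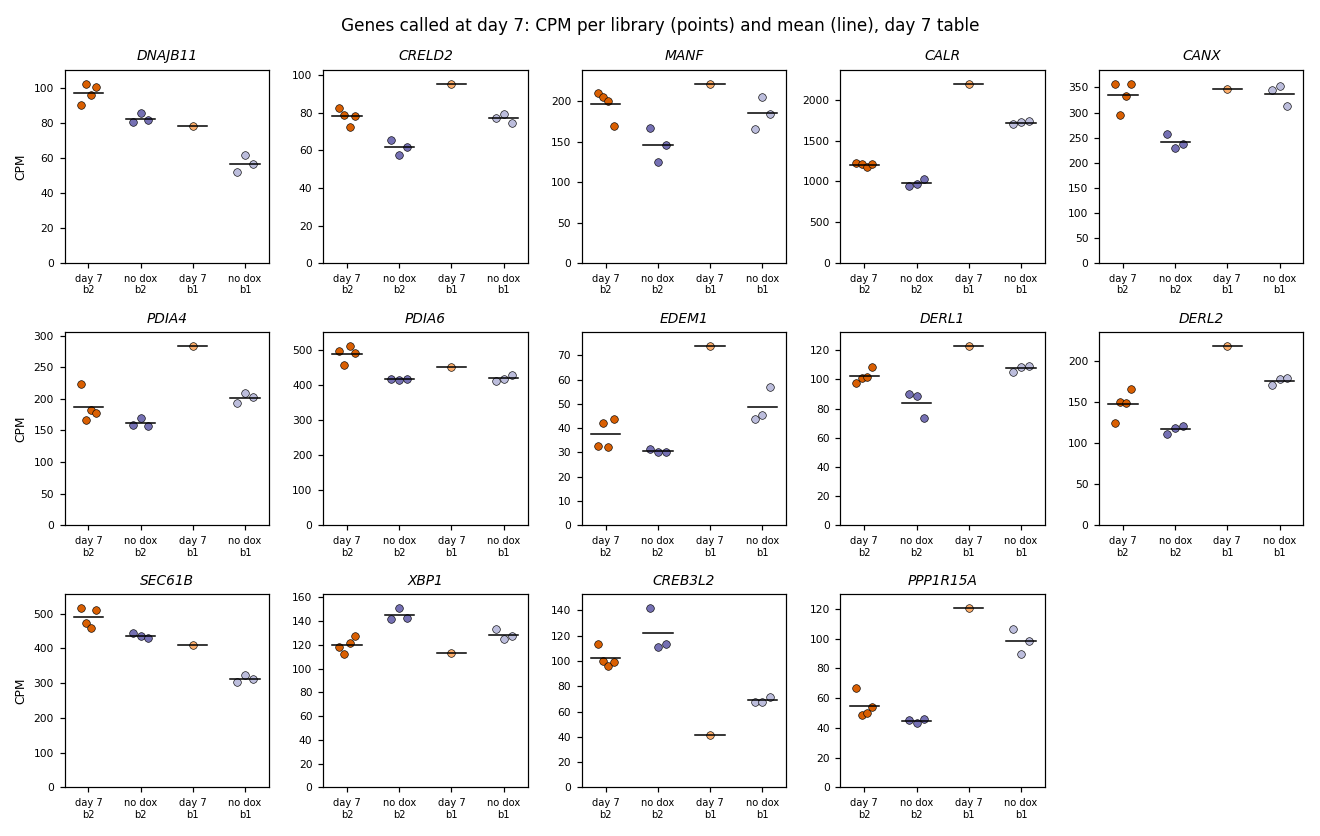
CPM of the 14 members called at day 7 in each library of the day 7 table (points) with the mean of each group and batch (line); every axis starts at 0. Day 7 libraries lie above the untreated ones of the same batch for 10 members in both batches, and below them for XBP1.

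Counted over libraries, 10 of the 36 members (27.8%) had every day 7 library above every untreated one in both batches, against 928 of 12449 genes (7.45%). They were DNAJB11, CRELD2, MANF, CALR, PDIA6, EDEM1, DERL1, DERL2, SEC61B and PPP1R15A. One member (2.78%), XBP1, lay below in both batches, against 824 genes (6.62%). Without the single day 7 library of b1, 9 members were called, 8 of them among these 14, and DNAJB11, PDIA4, EDEM1, SEC61B, CREB3L2 and PPP1R15A lost their calls at log2 changes of 0.24, 0.22, 0.31, 0.18, -0.25 and 0.30. Other libraries ended calls too. That of XBP1 was lost without untreated b2-2, that of CREB3L2 without untreated b2-1, and that of DERL1 without untreated b2-4 or day 7 b2-20. The call of PDIA6 was lost without any 1 untreated b2 library or without day 7 b2-19 or b2-20, and that of PPP1R15A without any 1 untreated b2 library, untreated b1-2 or day 7 b2-17. The calls of CALR, CANX, CRELD2, MANF and DERL2 held whichever library was left out.

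Read against the promoters shown above, the 7 members with an ERSE were not called alike at day 7. CALR, CANX, CRELD2 and PDIA6 rose, XBP1 fell, and HSPA5 and HSP90B1 were not called. None of the 3 members with an ERSE-II, SDF2L1, HYOU1 and HERPUD1, was called.

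The day 7 effect was then compared between batches as an interaction, b2 minus b1. None of the 37 members was called by edgeR, where 2.44% of 13371 genes were (1.42% up and 1.02% down). At an unadjusted p under 0.05 there were 9 members, and DESeq2 and limma-voom each called 0. HSPA5 had a difference of 1.01 ± 0.37 (SE, edgeR adjusted p = 0.143), from log2 ratios of mean CPM of 0.48 in b2 and -0.56 in b1. For CANX the difference was 0.44 ± 0.14 (SE, edgeR adjusted p = 0.0977), from 0.48 in b2 and 0.05 in b1, and for HSP90B1 it was 0.39 (edgeR adjusted p = 0.100), from 0.20 and -0.18. The b1 side rests on 1 library.

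The batches also differed without doxycycline. Of the 36 members tested 25 did not overlap between untreated b2 and b1 libraries (69.4%, against 56% of all genes), 11 higher in b2 and 14 lower. DNAJC10 was 2.78-fold and ATF6 1.90-fold higher in b2. PPP1R15A was 2.19-fold and CALR 1.76-fold higher in b1. With no batch term no member was called at day 7 by edgeR (35 tested). Few genes of any kind were called there, 189 up and 134 down, against 1049 and 906 with the term.

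Day 3 was compared with no doxycycline within b2, from the second table, and 3 of 33 members rose (9.09%), where 3.51% of 10586 genes tested were called, 1.84% up and 1.67% down. They were CALR, CANX and CRELD2, and no member fell. The untreated libraries of this table are b2-4 and the columns X1 and X2, whose label fits a sample of each batch and which were treated as b2; the day 3 and day 7 values share them. The median log2 change was 0.13, against 0.0050 over all genes tested, and 8 members had an unadjusted p under 0.05. HSPA13, EDEM3 and SEL1L did not pass the filter on low counts there. In this table the 36 members took 0.540% to 0.551% of UMIs without doxycycline, 0.570% to 0.622% at day 3 and 0.594% to 0.618% at day 7.

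CALR had 1126, 1165 and 1218.5 CPM without doxycycline, 1379, 1501, 1532 and 1298 CPM at day 3, and 1478, 1444, 1408 and 1392 CPM at day 7. All libraries of both times lay above the untreated ones and the times overlapped. The log2 change was 0.29 ± 0.07 at day 3 (SE, edgeR adjusted p = 0.0139) and 0.0029 ± 0.063 at day 7 against day 3 (SE, edgeR adjusted p = 0.990).

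CRELD2 had 78.8, 71.0 and 72.2 CPM without doxycycline, 93.5, 87.4, 104 and 88.5 CPM at day 3, and 99.96, 95.5, 87.8 and 92.7 CPM at day 7. It too stood above all untreated libraries at both times. The log2 change came to 0.33 ± 0.09 at day 3 (SE, edgeR adjusted p = 0.0369) and 0.0082 ± 0.083 at day 7 against day 3 (SE, edgeR adjusted p = 0.976).

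CANX had 156, 132 and 143 CPM without doxycycline, 172, 171, 180 and 173 CPM at day 3, and 214, 189, 214 and 228 CPM at day 7, so that no 2 of the times overlapped. Its log2 change came to 0.28 ± 0.08 at day 3 (SE, edgeR adjusted p = 0.0486) and 0.28 ± 0.07 at day 7 against day 3 (SE, edgeR adjusted p = 0.0166).

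DNAJB11 was the other member that rose between day 3 and day 7, 2 of 33 in all (6.06%, where 5.07% of all genes were called, 2.76% up and 2.31% down). It had 145, 152 and 133 CPM without doxycycline, 153, 157, 144 and 147 CPM at day 3, and 174, 186, 178 and 170 CPM at day 7. The untreated and day 3 libraries overlapped and those of day 7 lay above both. Its log2 change at day 7 against day 3 was 0.23 ± 0.07 (SE, edgeR adjusted p = 0.0467), and at day 3 against no doxycycline 0.07 ± 0.08 (SE, edgeR adjusted p = 0.722). The median over the 33 members at day 7 against day 3 was 0.05, against 0.0070 over all genes, and 4 members had an unadjusted p under 0.05.

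**Figure D3:**
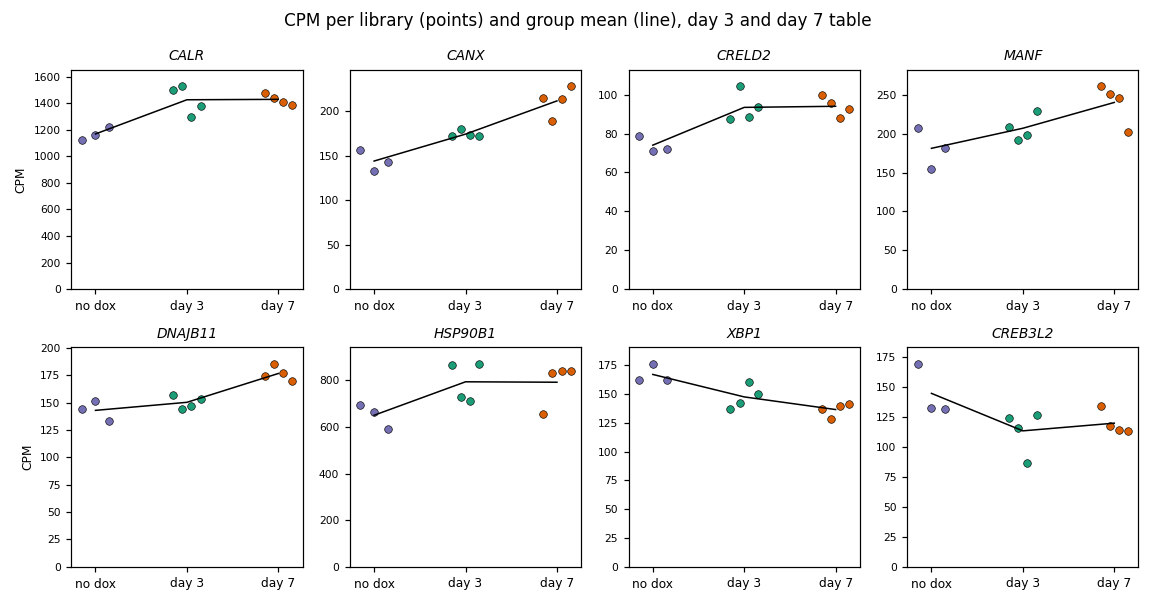
CPM of 8 members in each b2 library of the table with day 3 and day 7 (points) with the mean of each time (line); every axis starts at 0. CALR and CRELD2 stand at their day 7 level by day 3, CANX is higher at each time than at the one before, DNAJB11 lies above the untreated libraries at day 7 alone, and the mean of XBP1 is lowest at day 7.

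The members that fell at day 7 were not called at day 3. XBP1 had 162, 176 and 163 CPM without doxycycline, 150, 137, 142 and 161 CPM at day 3, and 137, 129, 140 and 141 CPM at day 7. Both times lay below the untreated libraries. Its log2 change was -0.18 ± 0.08 at day 3 (SE, edgeR adjusted p = 0.212) and -0.11 ± 0.07 at day 7 against day 3 (SE, edgeR adjusted p = 0.454).

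CREB3L2 had 170, 133 and 132 CPM without doxycycline, 127, 124, 116 and 86.9 CPM at day 3, and 134, 118, 115 and 114 CPM at day 7. Day 3 lay below the untreated libraries and day 7 overlapped them. The log2 change at day 3 was -0.36 ± 0.11 (SE, edgeR adjusted p = 0.0975).

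HSPA5 had 14.3, 21.6 and 16.1 CPM without doxycycline, 25.9, 23.0, 21.2 and 21.7 CPM at day 3, and 28.2, 24.0, 23.6 and 19.5 CPM at day 7. The groups overlapped at both times. The log2 change at day 3 was 0.37 ± 0.17 (SE, edgeR adjusted p = 0.273) and at day 7 against day 3 0.05 ± 0.15 (SE, edgeR adjusted p = 0.901). Of the sensors, ATF6 had 12.8, 8.69 and 9.13 CPM without doxycycline, 10.7, 11.0, 13.1 and 12.2 CPM at day 3, and 8.44, 6.95, 9.12 and 8.34 CPM at day 7. Its day 7 libraries lay below those of day 3, at a log2 change of -0.50 ± 0.20 that was not called (SE, edgeR adjusted p = 0.150). EIF2AK3 had 4.16, 4.68 and 3.48 CPM without doxycycline, 2.82, 2.92, 6.76 and 2.76 CPM at day 3, and 2.60, 5.21, 5.09 and 6.25 CPM at day 7, with all 3 groups overlapping. The day 3 log2 changes were 0.21 for ATF6 and -0.15 for EIF2AK3 (edgeR adjusted p = 0.672 and 0.889).

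Single libraries ended calls of the time course. CALR at day 3 lost its call without untreated X1 or X2 or without day 3 b2-10 or b2-11, and those of CRELD2 and CANX were lost in 9 and 13 of 17 alternatives. At day 7 against day 3, DNAJB11 lost its call in 15 of 17 and CANX in 2, which left out day 3 b2-10 or day 7 b2-20.

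The second table gave its own value for day 7 against no doxycycline in b2, from other counts of the same samples. There 8 of 33 members were called (24.2%, where 15.6% of all genes were, 8.27% up and 7.31% down), 7 up and 1 down. CANX had 0.56 ± 0.08 (SE, edgeR adjusted p = 7.29e-06), MANF 0.41, CRELD2 0.34, DNAJB11 0.30, CALR 0.29, HSP90B1 0.28 and PDIA6 0.26 (edgeR adjusted p = 0.00471, 0.00775, 0.00502, 0.00341, 0.0389 and 0.00540). XBP1 fell by 0.29 on the log2 scale (edgeR adjusted p = 0.00757). HSP90B1 was called there and not in the day 7 table, whose fit also holds b1. In b2 of the day 7 table all 4 day 7 libraries of HSP90B1 lay above the untreated ones (log2 ratio of mean CPM 0.20). The b1 library lay below its untreated ones (-0.18). EDEM1, PDIA4, SEC61B, CREB3L2 and PPP1R15A were called in the day 7 table and not here, at log2 changes of 0.26, 0.20, 0.14, -0.28 and 0.28, and they were not called from the b2 libraries of the day 7 table alone either (0.32, 0.23, 0.18, -0.24 and 0.31). DERL1 and DERL2 were called from those b2 libraries (0.29 and 0.36) and not from the second table (0.28 and -0.0012). Of the 33 members tested in both tables, 9 had log2 changes of opposite sign, DERL2, DNAJC10, EIF2AK3, ERO1A, P4HB, PDIA3, PPP1R15B, SSR1 and UGGT1, and DERL2 alone of these was called in either.

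For some members the tables disagreed on how many molecules there were. Summed over the 5 libraries that carry 1 label in both, the second table held 1.40% of the day 7 table's UMIs for PDIA3 (86 against 6140), 3.46% for DERL2, 10.9% for SSR1, 13.4% for DNAJC10, 32.4% for DERL1 and 52.4% for CANX. For DNAJB11 it held 149%. For 22 members the sums were within 10% of each other, among them CALR, CRELD2, MANF, HSPA5 and XBP1. The cause was not tested. PDIA3, SSR1 and XBP1 have pseudogenes named for them in GENCODE 29, and 21 members are overlapped by a gene on the opposite strand (CRELD2 by ALG12, DNAJB11 by TBCCD1). Which strand was counted is not stated in the labels, and without it the reads of such pairs cannot be told apart. Another gene on the same strand overlaps 13 members (SYVN1 by FAU, PDIA5 by SEC22A, SSR1 by CAGE1), and the strand would not separate those. Members with a pseudogene or an overlap were found on both sides. XBP1, CRELD2, SYVN1 and PDIA5 were counted within 10% in both tables, and PDIA3, SSR1 and DERL2 were not. SEL1L, at 38.1%, has no such pseudogene or overlap. These are matches by name and position, and whether either had a part in the difference was not tested.

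**Figure D4:**
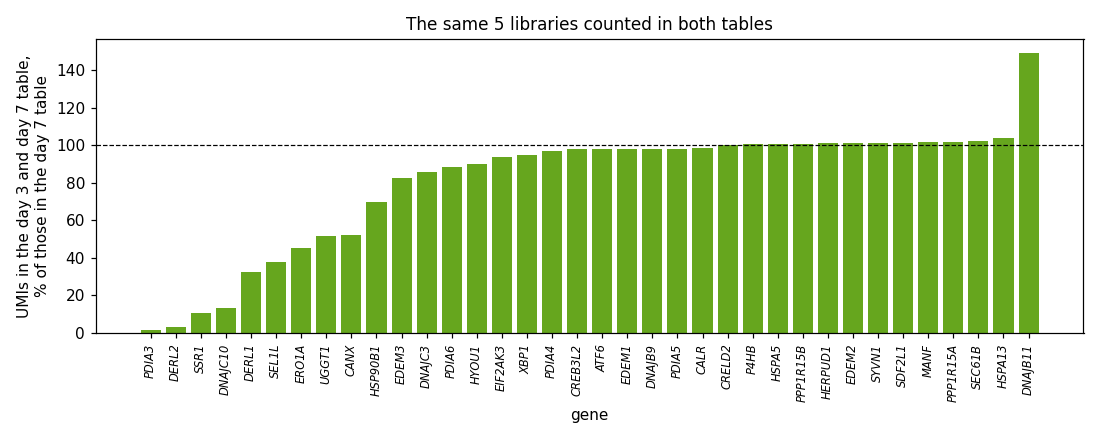
UMIs of each member in the table with day 3 and day 7 as a percentage of those in the day 7 table, summed over the 5 libraries that both hold under 1 label; the dashed line marks 100%. PDIA3 and DERL2 stand at 1.40% and 3.46%, DNAJB11 at 149%, and 22 members within 10% of the line.

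Beyond the 37, a wider list of 109 ER genes was tested in the same fits. At day 7, 13 of 106 tested rose and 5 fell, where 15.7% of all genes were called, 8.43% up and 7.28% down. The share called in either direction was near that of all genes and is not read as a result about the whole list. The same shares of all genes stand beside the day 7 counts of its parts. In translocation and signal peptide removal 4 of 17 rose and 1 fell, led by SEC11C, a catalytic subunit of the signal peptidase (log2 change 0.45 ± 0.10, SE, edgeR adjusted p = 0.00458), SSR2 (0.25), SEC61A1, the channel itself (0.22), and TRAM2, which fell (-0.26). Of 19 genes of glycan transfer and trimming RPN2, of the oligosaccharyltransferase, rose (0.26), and of 24 other folding enzymes TMX2, a membrane thioredoxin-like protein (0.44), SDF2, the paralog of SDF2L1 (0.38), and CNPY2 (0.26). In degradation 3 of 19 rose, UFD1, a cofactor of the p97 ATPase (0.50), AUP1 (0.38) and HM13, the signal peptide peptidase (0.33).

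Among the listed outputs of the PERK and ATF4 arm, of 9 tested at day 7 none rose and 3 fell, where 7.28% of all genes fell. The 3 were NUPR1, a stress-induced chromatin protein, at a log2 change of -2.30 ± 0.25, TRIB3, a pseudokinase, at -0.82 ± 0.15, and CHAC1, which degrades glutathione, at -0.58 ± 0.16 (SE, edgeR adjusted p = 1.49e-06, 0.000928 and 0.0133). PPP1R15A, which rose at day 7, was counted among the members and is not in this list. Which eIF2alpha kinase, if any, had a part in these changes was not tested. In the difference of the day 7 effect, b2 minus b1, 2 of 9 were called, both with the lower log2 change in b2, TRIB3 at -1.15 ± 0.23 and ATF4, the transcription factor of the arm, at -0.48 ± 0.12 (SE, edgeR adjusted p = 0.00607 and 0.0315), where 1.02% of all genes were called lower, and 7 of 9 had an unadjusted p under 0.05. The b2 counts of the second table gave 6 of 10 down at day 7, where 7.31% of all genes fell, with ASNS at -2.19 and NUPR1 at -2.49 on the log2 scale (edgeR adjusted p = 2.83e-16 and 1.06e-11). The list's median was -0.38 over these 10 genes in b2. From the day 7 table it was -0.18, over 9 genes and both batches, so the 2 medians differ in genes and samples too. ASNS did not pass the filter on low counts in the day 7 table, so its values rest on the counts of the second table alone. How the 2 tables count ASNS was not compared. At day 3, where 1.67% of all genes fell, 3 of 10 did, ASNS, asparagine synthetase, at -1.86 ± 0.10, NUPR1 at -1.82 ± 0.17 and TRIB3 at -1.10 ± 0.13 (SE, edgeR adjusted p = 5.61e-14, 2.96e-08 and 9.20e-07). Among 18 other sensors and regulators CREB3 (0.28) and BAG6 (0.21) rose at day 7 and EIF2AK2 (PKR), the RNA-activated eIF2alpha kinase, fell (-0.70 ± 0.13, SE, edgeR adjusted p = 0.000615), 3 of 18 called beside the 15.7% of all genes. At day 3 MLEC, a lectin of the ER, was the only 1 of 100 tested to rise (0.52), near the 1.84% of all genes that did. At day 7 against day 3, 5 of 100 rose and 2 fell, beside 2.76% and 2.31% of all genes. SEC11C, STT3B, TMX2, AUP1 and RTCB, the ligase that joins XBP1 exons after IRE1 has cut them, rose and ATF3 and CHAC1 fell (-0.75 and -0.60).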

How the data were processed

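Bulk MARS-seq of 15 samples was deposited by the authors as 2 tables of UMI counts, whole numbers per gene and library. Per the submitters' processing notes, bcl2fastq, cutadapt, STAR 2.4.2a, HTSeq and DESeq2 were named, with hg38 and no roles. Each table holds genes whose highest library count is 6 or more. The 55 other columns of per-sample values were not used.

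Samples were grouped by their labels. In the table with day 3, the columns X1 and X2 fit an untreated sample of each batch. They were counted as untreated without a number and fitted as b2. Over 11481 genes, X1 correlated best with untreated b2-1 (r = 0.870) and X2 with untreated b2-2 (r = 0.869) of the day 7 table, a description across genes, which are not independent replicates. For CALR, X1 held 3784 UMIs, against 3890 in untreated b2-1 and 6952 in untreated b1-1. X2 held 5230, against 5292 in untreated b2-2 and 4420 in untreated b1-2.

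The tables were fitted separately. Genes were filtered with filterByExpr and scaled by TMM, and 12449 and 10586 genes entered the quasi-likelihood test of edgeR 4.0.16 (robust fit, R 4.3.3), with Benjamini-Hochberg adjustment and a threshold of 0.05. The day 7 fit had a batch term, and the 3 groups of the table with day 3 shared 1 fit. The common biological coefficient of variation was 0.0991 and 0.0843. Alternatives were DESeq2 1.42.0, limma-voom (limma 3.58.1), other scalings and filters, no batch term, b2 alone, the second table and leaving out each library. Scripts were tested on simulated data. Figures used matplotlib 3.10.9 in Python 3.11.15.

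Values in every library are given for members called in a comparison of times and for HSPA5, XBP1 and the sensors. Of each wider list at most 4 called genes per comparison, by smallest p, are named. The members and lists were chosen with earlier results of these data known. Groups share no replicate number, so no samples were paired.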

Additional observations from a re-analysis of the deposited data

Results flagged for a closer look

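Within groups of 4 to 6 libraries, 16 member values stood far from the rest of their group (138 groups examined, where chance flags about 1 group in 20). The day 7 group of the day 7 table pools 4 b2 libraries with b1-13, and 8 of the values are those of b1-13: CALR at 2193 CPM, EDEM1 at 73.7, P4HB at 1194, PPP1R15A at 120 and SYVN1 at 75.3 lay above the b2 libraries, and CREB3L2 at 41.8, DNAJC10 at 7.17 and HSP90B1 at 532 CPM below them. Untreated b1 libraries stood on the same side of untreated b2 libraries for these genes.

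In the table with day 3 and day 7, day 7 library b2-17 held 4 of the values, P4HB at 1006 and PPP1R15A at 83.7 CPM above the other day 7 libraries and HSP90B1 at 657 and PPP1R15B at 29.2 CPM below them. Day 3 library b2-10 had EDEM1 at 50.4 CPM and b2-11 had EIF2AK3 at 6.76 CPM, both above the other day 3 libraries. In the day 7 table untreated b2-2 had HSPA5 at 17.9 CPM and untreated b1-3 had PDIA6 at 431 CPM, both above the other untreated libraries.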

How the results depend on the processing

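Totals of members called are given here, not shares of those called first. At day 7, against 14, library size alone called 8, no batch term 0 (35 tested), b2 libraries alone 9, 8 came from the b2 counts of the second table, and DESeq2 and limma-voom called 15 each. Leaving out 1 library gave 9 to 14. At day 3, against 3, DESeq2, limma-voom and library size alone each called 1, and leaving out 1 library gave 0 (without untreated X2 or day 3 b2-11) to 4 (without day 7 b2-17). At day 7 against day 3, against 2, DESeq2, limma-voom, RLE size factors, library size alone and no filter each called 1, and leaving out 1 library gave 0 (without day 3 b2-10) to 3 (without day 7 b2-17). Between batches 0 were called, against 2 with library size alone. With library size alone 667 genes rose and 1429 fell at day 7, against 1049 and 906 with TMM, and the median of all genes lay at -0.09. With no batch term 189 of all genes rose and 134 fell. Among the 18 members followed through the alternatives, log2 changes that changed sign were those of ATF6 (0.058) and PPP1R15A (-0.079) at day 7 with no batch term, and of DERL2 (-0.0012) and EIF2AK3 (0.21) with the second table's counts. At day 7 against day 3 they were CALR with DESeq2 (-0.0033), RLE (-0.0031), library size alone (-0.0049) and no filter (-0.0024), and EDEM1 with limma-voom (-0.0016). Leaving out 1 library, day 7 values ran from -0.015 to 0.16 for ERN1 and from -0.28 to 0.018 for ATF6. At day 7 against day 3 they ran from -0.035 to 0.13 for HSPA5, from -0.030 to 0.063 for CRELD2, from -0.040 to 0.035 for CALR, from -0.071 to 0.094 for EDEM1 and from -0.031 to 0.13 for CREB3L2. The cause was not tested. No difference between batches can be had without day 7 b1-13. No paired analysis was possible because the groups share no replicate number. Depth limits the sensors, with 4 to 46 UMIs per library in the day 7 table.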
